A study of Mus musculus with 9 samples.

Results

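The enzymes that build the lipids of the myelin sheath were followed at the transcript level in the brains of young and old mice. The set holds 10 named genes of sphingolipid, galactolipid and very-long-chain fatty acid metabolism, out of 49315 genes in the count table. They are Sptlc1, Sptlc2, Cers1, Cers2, Elovl1, Elovl7, Fa2h, Ugt8a, Gal3st1 and Aspa, and they were chosen by name from known function. The rule made no use of their values, but earlier results of these data were known when the genes were chosen. Whole-brain polyA RNA from wild-type male C57BL/6J mice was sequenced for 5 young animals (3 months by the labels, 3 or 4 months by the study's methods) and 4 old animals (33 months), with no further treatment given for either group. Old replicate 2 was not analysed here. The question was whether the transcripts for myelin lipid synthesis differ between the ages.

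Myelin is the membrane that oligodendrocytes wrap around axons, and it is unusually rich in galactosylceramide and its sulfated form, sulfatide. These lipids are made by joining serine to a fatty acid, adding a second and often very long fatty acid to give ceramide, and then attaching galactose and sulfate. Loss of the last steps in mice leaves myelin that is unstable and conducts poorly, and several of the human orthologs are leukodystrophy genes. Most of the enzymes that act early in the route are shared by all cells, whereas Ugt8a, Gal3st1, Fa2h and Aspa are used mainly by oligodendrocytes in the brain.

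All 10 genes had enough counts to enter the comparison of old with young mice, made by edgeR (quasi-likelihood F-test). After adjustment over 18492 genes by the method of Benjamini and Hochberg, 3 of the 10 fell with age (Ugt8a, Gal3st1 and Fa2h) and 2 rose (Aspa and Cers2). Among all genes tested, 4.89% passed in the lower direction and 6.09% in the higher direction, 11.0% in all. The median log2 fold change of the 10 was -0.037, beside -9.2e-05 over all genes tested. No member passed the study's further threshold of an absolute log2 fold change over 0.58, which 2.50% of all genes passed. The largest absolute change among the 10 was 0.40, so the count of 0 held for any p, and it was also 0 with DESeq2. The summed level of the 10 ranged from 385 to 412 CPM (counts scaled to library size) in young and from 352 to 396 CPM in old mice, and these ranges overlapped. In whole-brain RNA, fewer cells of a type and less RNA per cell cannot be told apart.

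**Figure D1:**
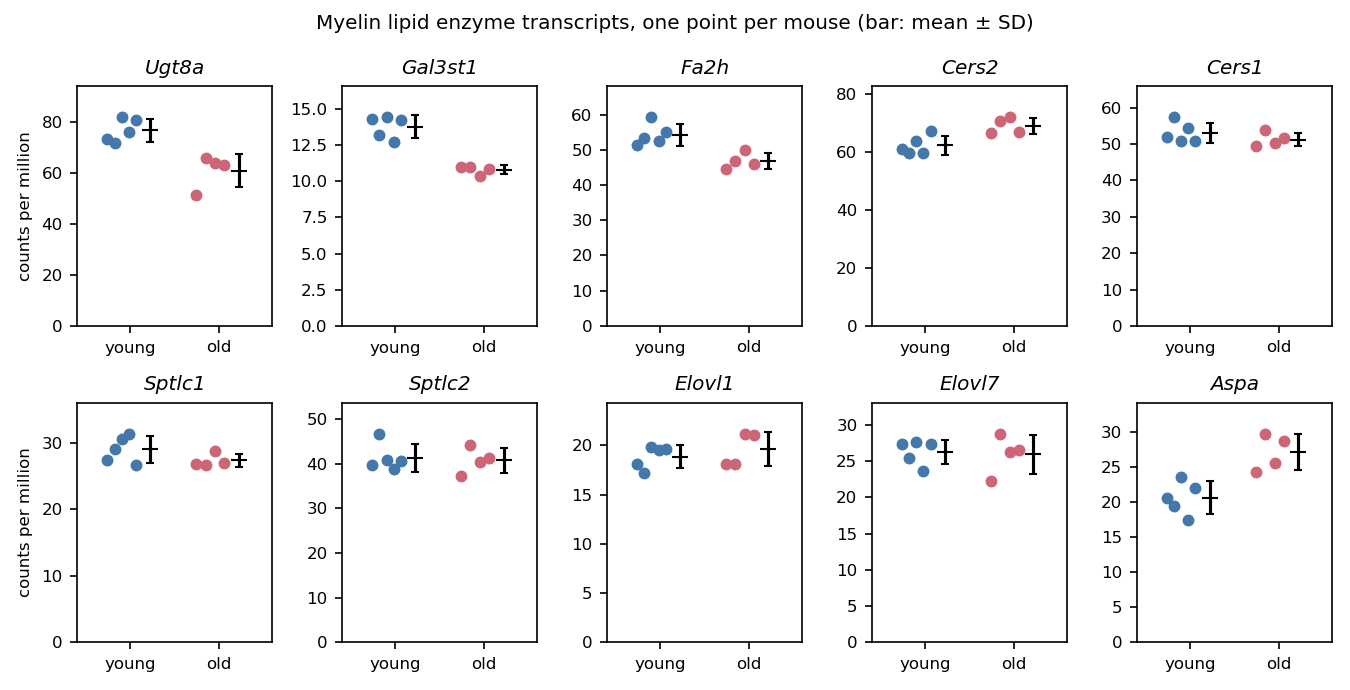
Transcript level of each enzyme in CPM (vertical axis, from 0), with a point for each of the 5 young and 4 old mice and a bar for mean ± SD. The old mice lie below all young mice for Ugt8a, Gal3st1 and Fa2h and above them for Aspa, while the ages overlap for the other 6 genes.

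The 250 bases before the RefSeq start of Ugt8a, Gal3st1 and Aspa are shown because these are the members with the largest changes, in opposite directions. They were taken from RefSeq for GRCm38.p6, where 9 of the 10 genes had a window, and each is written 5′ to 3′ on the gene's own strand. Capitals mark the E-box (CANNTG) and the GC box (GGGCGG), searched on both strands, with overlapping matches of a motif counted separately. The window of Ugt8a lies at chr3:125938653-125938902 on the minus strand, that of Gal3st1, the first of its 3 starts, at chr11:3983386-3983635 on the plus strand, and that of Aspa at chr11:73324638-73324887 on the minus strand.
Ugt8a: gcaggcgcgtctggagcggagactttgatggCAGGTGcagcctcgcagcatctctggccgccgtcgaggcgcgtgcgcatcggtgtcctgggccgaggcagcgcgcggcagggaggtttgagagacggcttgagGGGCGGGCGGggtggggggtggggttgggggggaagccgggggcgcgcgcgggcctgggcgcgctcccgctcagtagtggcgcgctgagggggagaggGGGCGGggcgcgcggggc
Gal3st1: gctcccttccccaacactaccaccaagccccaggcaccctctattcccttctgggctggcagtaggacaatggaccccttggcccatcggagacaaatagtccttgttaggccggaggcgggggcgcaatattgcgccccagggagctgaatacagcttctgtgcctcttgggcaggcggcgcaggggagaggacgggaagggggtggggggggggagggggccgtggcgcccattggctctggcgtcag
Aspa: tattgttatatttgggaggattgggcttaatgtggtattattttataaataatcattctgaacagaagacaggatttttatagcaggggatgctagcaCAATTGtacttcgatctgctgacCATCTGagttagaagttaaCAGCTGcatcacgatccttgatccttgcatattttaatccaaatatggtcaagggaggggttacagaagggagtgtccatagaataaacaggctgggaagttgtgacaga

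The window of Ugt8a had a GC content of 76.8%, that of Gal3st1 65.6% and that of Aspa 38.8%, beside a median of 52.4% over 32851 mouse windows of the same length. CpG dinucleotides occurred at 0.993 times the number given by base composition in the Ugt8a window, 0.414 times in the Gal3st1 window and 0.23 times in the Aspa window, with a median of 0.373 over all windows. Cers2, which also rose, had a GC content of 74.8% and a CpG value of 0.692 in the first of its 2 windows. In the second these were 54% and 0.286. Ugt8a held 3 GC boxes, which began 116, 112 and 18 bases before the start, the first pair overlapping, and 1 E-box that began 219 bases before it. Aspa held 3 E-boxes, beginning 152, 129 and 110 bases before the start, and no GC box, and Gal3st1 held neither motif in this window. Over all windows, 66.2% held an E-box and 32.7% a GC box. These are matches of letters and were not tested against the change with age.

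The 3 enzymes that fell act on galactolipids or their fatty acids. Ugt8a encodes the ceramide galactosyltransferase that makes galactosylceramide, and it lies on GRCm38 chromosome 3 from 125865271 to 125938619 on the minus strand. It was measured at 73.4, 71.8, 81.8, 76.0 and 80.9 CPM in the 5 young mice and at 51.2, 65.9, 63.7 and 63.0 CPM in the 4 old mice. Every old mouse was below every young mouse, and old replicate 1 was the lowest of all. The mean was 76.8 ± 4.48 CPM (SD, n = 5) in young and 61.0 ± 6.63 CPM (SD, n = 4) in old mice. The log2 fold change was -0.33 (SE 0.067, 95% interval -0.48 to -0.19, edgeR adjusted p = 0.0055), a level lower by 20.7%. These values rest on 935 to 1574 counts per library.

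Gal3st1 encodes the cerebroside sulfotransferase, which adds sulfate to galactosylceramide to give sulfatide, and it lies on chromosome 11 from 3983636 to 3999326 on the plus strand. The young mice had 14.3, 13.2, 14.4, 12.7 and 14.3 CPM, and the old mice had 11.0, 11.0, 10.4 and 10.9 CPM. The old mice were tightly grouped and all below the lowest young mouse. The mean went from 13.8 ± 0.779 CPM (SD, n = 5) to 10.8 ± 0.286 CPM (SD, n = 4). The change was -0.35 on the log2 scale (SE 0.074, 95% interval -0.50 to -0.19, edgeR adjusted p = 0.0055), or 21.5% lower, with 156 to 274 counts per library behind it.

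Fa2h encodes the fatty acid 2-hydroxylase, which supplies the hydroxylated fatty acids found in a large share of myelin galactolipids. It lies on chromosome 8 from 111345135 to 111393824 on the minus strand. Its level was 51.3, 53.2, 59.2, 52.6 and 55.0 CPM in young and 44.5, 46.7, 50.01 and 46.0 CPM in old mice. The ages did not overlap, although old replicate 4 came close to young replicate 1. The fall was 13.6% (log2 fold change -0.21, SE 0.051, 95% interval -0.32 to -0.10, edgeR adjusted p = 0.012), smaller than that of Ugt8a or Gal3st1, a difference that was not tested. Groups without overlap and with old mice lower occurred in 6.08% of all genes tested, and in 3 of these 10, and in either direction in 12.6% of all genes, beside 4 of these 10.

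These 3 falls depended on libraries to different degrees. Each kept an adjusted p under 0.05 in edgeR when any of the 9 mice was left out, with the highest at 0.018 for Ugt8a, 0.019 for Gal3st1 and 0.044 for Fa2h. Young replicates 1 and 3 and old replicate 1 had less of the ribosomal RNA-like transcript Gm42418, at 12900 to 17807 CPM beside 28073 to 33637 CPM in the other 6 libraries. Without these 3 libraries, Ugt8a still fell (log2 fold change -0.25) and Gal3st1 and Fa2h kept their direction at -0.32 and -0.17, with edgeR adjusted p = 0.088 and 0.11. With limma on log2(TPM + 1), where the median of all genes shifted to -0.14, the values were -0.49, -0.48 and -0.37 with adjusted p = 0.070, 0.11 and 0.26, and over all genes 287 were called lower and 307 higher.

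Aspa moved the other way. It encodes aspartoacylase, the oligodendrocyte enzyme that splits N-acetylaspartate into aspartate and the acetate used for lipid synthesis, and its loss in humans causes Canavan disease. The gene lies on chromosome 11 from 73304992 to 73329596 on the minus strand. The RefSeq promoter window shown above lies inside this span. The young mice had 20.6, 19.5, 23.6, 17.5 and 22.1 CPM and the old mice 24.4, 29.8, 25.6 and 28.8 CPM. All old mice were above all young mice, although young replicate 3 came close to old replicate 1. The mean was 20.7 ± 2.33 CPM (SD, n = 5) in young and 27.1 ± 2.55 CPM (SD, n = 4) in old mice, a rise of 31.6% (log2 fold change 0.40, SE 0.083, 95% interval 0.22 to 0.57, edgeR adjusted p = 0.0057). It passed in each of the 9 fits that left out a mouse (highest adjusted p = 0.022) and without the 3 libraries low in Gm42418 (log2 fold change 0.51), and not with limma on log2(TPM + 1) (0.21, adjusted p = 0.58). Aspa was the only 1 of the 10 with old mice higher and no overlap, beside 6.50% of all genes tested.

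The ceramide synthases attach the second fatty acid, and they differ in the chain length they use. Cers2, which takes very long chains and is the main form in oligodendrocytes, had 61.1, 59.7, 63.7, 59.9 and 67.3 CPM in young and 66.7, 70.9, 72.1 and 67.0 CPM in old mice. Young replicate 5 lay above 2 of the old mice, so the ages overlapped. The mean rose from 62.3 ± 3.19 CPM (SD, n = 5) to 69.2 ± 2.73 CPM (SD, n = 4), or by 11.0% (log2 fold change 0.15, SE 0.046, 95% interval 0.055 to 0.25, edgeR adjusted p = 0.040). This call was close to the threshold and was lost in 7 of the 9 fits that left out a mouse, with adjusted p up to 0.11 (without old replicate 4), and held only without young replicate 5 or old replicate 1. It was also missed with DESeq2 (adjusted p = 0.052) and without the 3 libraries low in Gm42418 (0.14).

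Cers1 encodes the synthase for C18 chains that prevails in neurons, and it had 50.8 to 57.4 CPM in young and 49.5 to 53.7 CPM in old mice. Its log2 fold change was -0.053 with a 95% interval of -0.15 to 0.047 (edgeR adjusted p = 0.53). Of the 3171 annotated exon bases of Cers1, 42.5% are shared with Gdf1 on the same strand, so its count is uncertain. Small parts of Cers2 and Elovl1, at most 3.92% of exon bases for any 1 partner, overlap genes on the opposite strand, and the strand setting of the counting is not stated.

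At the first step of the route, neither of the large subunits of serine palmitoyltransferase passed the test. Sptlc1, an essential subunit, ranged from 26.6 to 31.4 CPM in young and from 26.7 to 28.8 CPM in old mice (log2 fold change -0.083, 95% interval -0.21 to 0.040, edgeR adjusted p = 0.40). Sptlc2, a catalytic subunit, ranged from 38.7 to 46.7 CPM and from 37.2 to 44.1 CPM (log2 fold change -0.022, 95% interval -0.15 to 0.11, adjusted p = 0.86).

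Neither of the elongases of the set, which lengthen saturated fatty acids to the chains used in myelin, passed the test. Elovl1 ranged from 17.2 to 19.8 CPM in young and from 18.1 to 21.2 CPM in old mice, with a log2 fold change of 0.060 (95% interval -0.091 to 0.21, edgeR adjusted p = 0.65). Elovl7 ranged from 23.7 to 27.6 CPM and from 22.2 to 28.8 CPM, with a log2 fold change of -0.020 (95% interval -0.17 to 0.13, adjusted p = 0.89). The intervals of the 5 genes that did not pass reached 0.21 from 0 on the log2 scale at most, in either direction.

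**Figure D2:**
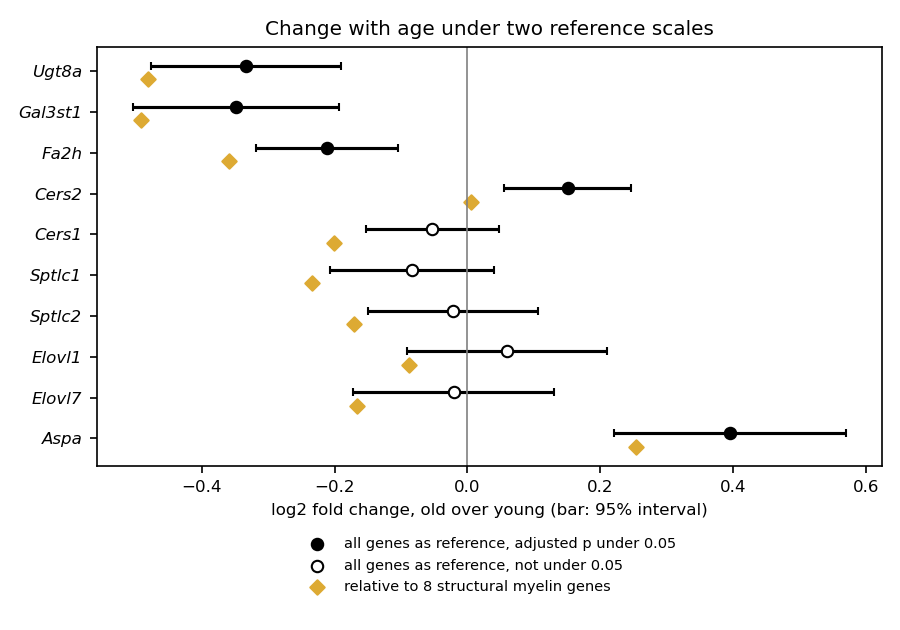
Log2 fold change of each enzyme, old over young, with its 95% interval (circles, filled where the edgeR adjusted p was under 0.05) and the same value relative to 8 structural myelin genes (diamonds). Ugt8a, Gal3st1 and Fa2h lie below 0 and Aspa above 0 on both scales, while Cers2 moves from 0.15 to 0.0058 and Elovl1 from 0.060 to -0.088.

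Ordered by level per kilobase of annotated exon, 4 enzymes led in young mice. Fa2h had 18.0 ± 1.03, Cers2 17.0 ± 0.869, Ugt8a 16.9 ± 0.988 and Cers1 16.7 ± 0.878 CPM per kilobase (SD, n = 5), and these 4 overlapped from mouse to mouse. Sptlc1 at 8.15 ± 0.564, Elovl1 at 6.91 ± 0.419, Gal3st1 at 6.76 ± 0.381 and Elovl7 at 6.55 ± 0.424 CPM per kilobase followed. Every young mouse had more Sptlc1 than any had Elovl1 on this scale, while Elovl1, Gal3st1 and Elovl7 overlapped. Sptlc2 (5.09 ± 0.385) and Aspa (3.47 ± 0.392) were the lowest, each without overlap with the gene above it. In old mice the order of the leading genes was Cers2 (18.8 ± 0.742), Cers1 (16.2 ± 0.588), Fa2h (15.6 ± 0.780) and Ugt8a (13.4 ± 1.46 CPM per kilobase, SD, n = 4). Thus Ugt8a had the lowest mean of the 4, and Cers2 lay above the other 3 in every old mouse. Aspa, at 4.56 ± 0.428 CPM per kilobase, was still the lowest by its mean, but it overlapped Sptlc2 at 5.02 ± 0.346, which in turn overlapped Gal3st1 at 5.30 ± 0.140.

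Transcripts of structural myelin proteins moved in both directions. Of 8 structural myelin genes, Mbp (log2 fold change 0.26, edgeR adjusted p = 0.019) and Mobp (0.33, adjusted p = 0.021) rose and Mog fell (-0.22, adjusted p = 0.026), with a median of 0.028. No gene of the list was called lower without young replicates 1, 3 or 5 or old replicates 1 or 5, and 1 was called higher without old replicate 1 or 3. With a replicate block 1 was called lower and 0 higher (4 at an unadjusted p under 0.05). With limma on log2(TPM + 1) or log2(TPM + 0.1) 0 passed in either direction (1 at an unadjusted p under 0.05 on each scale). The summed level of the 8 ranged from 6438 to 7542 CPM in young and from 7036 to 8664 CPM in old mice. Scaled to the sum of these 8 genes in each library, which shifted the median of all genes to -0.15, Ugt8a was at -0.48 (edgeR adjusted p = 6.5e-05), Gal3st1 at -0.49 (0.0017) and Fa2h at -0.36 (0.0061). On that scale Aspa was at 0.25 (adjusted p = 0.085) and Cers2 at 0.0058 (0.97), so neither call held.

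Markers of the oligodendrocyte lineage moved in both directions. Of 6 genes of mature oligodendrocytes, Hapln2 (log2 fold change 0.61), Anln (0.56) and Myrf (0.35) rose, with edgeR adjusted p = 0.00023, 0.018 and 0.00044, while Opalin was at -0.56 and missed the threshold (adjusted p = 0.063). In the fits that left out a mouse 3 to 4 of the 6 were called higher, and 1 was called lower without young replicate 4 or old replicate 3, while limma on log2(TPM + 1) called 1 lower and 0 higher (3 at an unadjusted p under 0.05). Their summed level was 285 to 333 CPM in young and 362 to 440 CPM in old mice, without overlap. Gpr17, a receptor of newly differentiating oligodendrocytes, fell by 0.83 on the log2 scale (adjusted p = 1.3e-06), the only 1 of 5 genes of that stage to pass, and their summed level was 304 to 363 CPM in young and 307 to 380 CPM in old mice. Among 5 precursor markers, C1ql1 (-0.43, adjusted p = 0.026) and Neu4 (-0.31, adjusted p = 0.0499) fell and Pdgfra was at 0.051 (adjusted p = 0.61). This count of 2 was kept without old replicate 4 and was 0 or 1 without any other mouse, 1 with DESeq2 and 0 without the 3 libraries low in Gm42418 (2 at an unadjusted p under 0.05). Of 3 genes expressed throughout the lineage, Sox10 rose (0.27, adjusted p = 0.014) and Olig1 fell (-0.17, adjusted p = 0.011). The part of these differences in the changes of the lipid enzymes was not tested.

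Some genes of other cells also moved with age. In edgeR 0 of 6 astrocyte, 0 of 4 tested Schwann cell and 0 of 5 choroid plexus genes passed. At an unadjusted p under 0.05 there were 1, 0 and 0. DESeq2, and edgeR without young replicate 2, called 1 astrocyte gene lower. The structural myelin scale called 1 astrocyte and 1 choroid plexus gene lower, as did edgeR with no filter on low counts. Of the vessel markers, 3 of 5 rose (Ly6c1 by 0.94, Pecam1 by 0.38 and Flt1 by 0.25 on the log2 scale). The others, Cldn5 at -0.14 and Slco1c1 at -0.12, went the other way and did not pass (edgeR adjusted p = 0.40 and 0.21). Of the blood cell genes, 3 of 5 rose (Hba-a1 by 1.35, Hbb-bs by 1.31 and Alas2 by 1.11). The summed level of these 5 was 86.1 to 116 CPM in young and 128 to 409 CPM in old mice. Among all genes tested, 6.09% passed in the higher direction and 4.89% in the lower direction. Of 6 microglial genes Tmem119 rose (0.53), and of 6 neuronal genes Stmn2 (-0.27) and Map2 (-0.14) fell. The count of vessel markers was 3 without old replicate 3 or old replicate 5 and 2 without any other mouse. It was 1 with limma on log2(TPM + 1), and the structural myelin scale gave 1 higher and 1 lower. Without young replicate 4, 4 of the 6 microglial genes passed. The count of blood cell genes was 3 without old replicate 3 and 0 or 1 without any other mouse (4 to 5 at an unadjusted p under 0.05), and 5 with DESeq2, and that of neuronal genes was 1 without young replicate 1, young replicate 5 or old replicate 1. For regions, the 5 cerebellar markers summed to 478 to 644 CPM in young and 337 to 571 CPM in old mice, and the 5 olfactory bulb markers to 23.7 to 80.2 and 23.0 to 160 CPM, and no gene of either list passed in edgeR (1 cerebellar and 0 olfactory bulb genes at an unadjusted p under 0.05). With DESeq2 1 cerebellar gene was lower, and with limma on log2(TPM + 1) 3 cerebellar genes were lower and 3 olfactory bulb genes higher. On the structural myelin scale 3 cerebellar genes were lower. The part of these in the changes of the enzymes was not tested.

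Around Aspa, 4 of 8 genes of N-acetylaspartate and acetate metabolism passed the test, and these 4 fell. The median of the 8 was -0.18. Nat8l, which makes N-acetylaspartate in neurons, fell by 0.19 on the log2 scale (edgeR adjusted p = 0.0027). Rimkla and Rimklb, which join it to glutamate, fell by 0.41 and 0.37 (adjusted p = 0.022 and 0.00018), and Acss2, which turns acetate into acetyl-CoA, fell by 0.28 (adjusted p = 0.00086). Folh1, which releases N-acetylaspartate from its glutamate conjugate, was the only gene of the list with a positive value (0.28, adjusted p = 0.10). Without the 3 libraries low in Gm42418, 3 of the 8 passed, all lower, as did 3 without old replicate 1 or old replicate 5. Leaving out old replicate 3 gave 3 lower and 1 higher, and leaving out young replicate 4 gave 5 lower. With limma on log2(TPM + 1) 0 passed (4 at an unadjusted p under 0.05), with a median of -0.34.

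In fatty acid supply, 2 of 8 genes fell. Acsl6, an acyl-CoA synthetase, was lower by 10.2% and Abcd2, a peroxisomal transporter of very-long-chain acyl-CoA, by 17.4% (edgeR adjusted p = 0.0087 and 0.0024). Of 10 further genes of the elongation cycle that could be tested, 9 had a negative log2 fold change, with a median of -0.12. Hacd3, a dehydratase of the cycle, alone passed, at -0.12 (adjusted p = 0.035), and the list held no call without young replicates 1, 3 or 5 or old replicates 1, 3 or 5 and 2 calls without young replicate 2 or old replicate 4.

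Calls in other steps of sphingolipid metabolism stand beside the 11.0% of all genes tested that passed in either direction. Of 8 tested genes on the way to ceramide, Sptssb, a small subunit that tunes serine palmitoyltransferase towards longer substrates, fell by 0.56 (edgeR adjusted p = 0.0062), and of 3 further ceramide synthases Cers6 rose by 0.16 (adjusted p = 0.033). The call in the steps to ceramide held in all 9 fits that left out a mouse and was lost without the 3 libraries low in Gm42418, and that of the synthases was lost without young replicate 3, young replicate 5 or old replicate 5. Of 8 genes that attach other head groups, B4galt6, a lactosylceramide synthase, fell by 0.10 (adjusted p = 0.0499). That call was lost in all 9 edgeR fits that left out a mouse, where 0 genes of the list were lower and 2 to 3 had an unadjusted p under 0.05, and 1 gene was higher without young replicate 4. Ugcg, which attaches glucose to ceramide instead of galactose, was at -0.077 (adjusted p = 0.30). In sphingolipid breakdown, 3 of 15 genes rose, namely the ceramidases Acer2 (1.19, adjusted p = 0.014) and Asah1 (0.16, adjusted p = 0.041) and the sphingosine-1-phosphate lyase Sgpl1 (0.21, adjusted p = 0.0069). The count was 2 without young replicates 3 or 5, without old replicates 3, 4 or 5, and with DESeq2. It was 1 with limma on log2(TPM + 1) and on the structural myelin scale. Leaving out old replicate 1 gave 3 higher and 1 lower. Galc and Arsa, the lysosomal enzymes that degrade galactosylceramide and sulfatide, were at 0.17 (adjusted p = 0.097) and -0.061 (adjusted p = 0.58). Of the pathway genes named here, Arsa shares 18.8%, Rimkla 8.78% and Acsl6 2.04% of exon bases with a gene on the opposite strand. Acss2 shares 3.89% with Gss, 3.3% with Acss2os and 1.94% with Ggt7, all on the opposite strand.

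**Figure D3:**
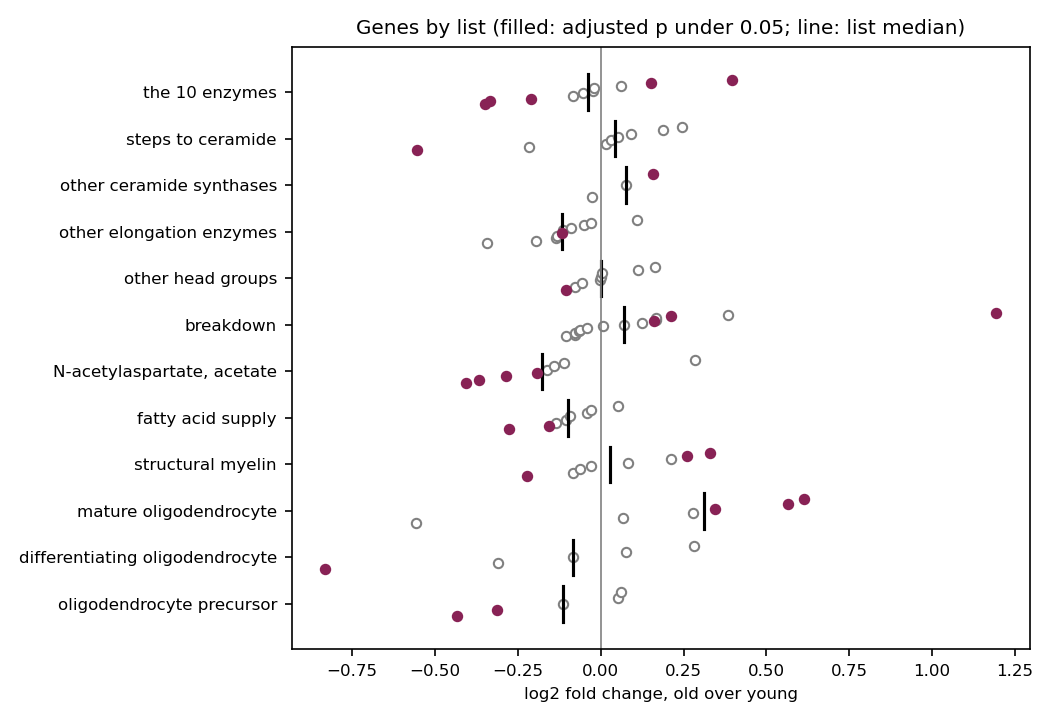
Log2 fold change, old over young, of every tested gene in the 10 enzymes and in lists of related pathways and oligodendrocyte stages, with a point per gene (filled where the edgeR adjusted p was under 0.05) and a line at each list's median. The 10 enzymes spread to both sides of 0, the N-acetylaspartate and acetate list lies mostly below 0 and the mature oligodendrocyte list mostly above it.

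Related enzymes, partner subunits and enzymes that compete for ceramide were also compared as ratios of counts within a library, which do not depend on library scaling. The ratio of Ugt8a to Ugcg was 0.878, 0.860, 1.12, 0.919 and 1.04 in young and 0.695, 0.838, 0.849 and 0.817 in old mice. Every old mouse was below every young mouse, and the old to young ratio of geometric means was 0.833. The two-sided exact permutation test over 126 splits gave p = 0.0238, which after adjustment over the 4 ratios tested was 0.0952 and missed the threshold. The ratio of Cers2 to Cers1 was 1.04 to 1.32 in young and 1.30 to 1.43 in old mice, with a log2 difference of 0.20 (exact permutation p = 0.0556, adjusted 0.111). Elovl1 to Elovl7 differed by 0.077 on the log2 scale (exact permutation p = 0.444, adjusted 0.524) and Sptlc1 to Sptlc2 by -0.062 (exact permutation p = 0.524, adjusted 0.524). The smallest p that 5 against 4 mice can give is 0.00794.

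**Figure D4:**
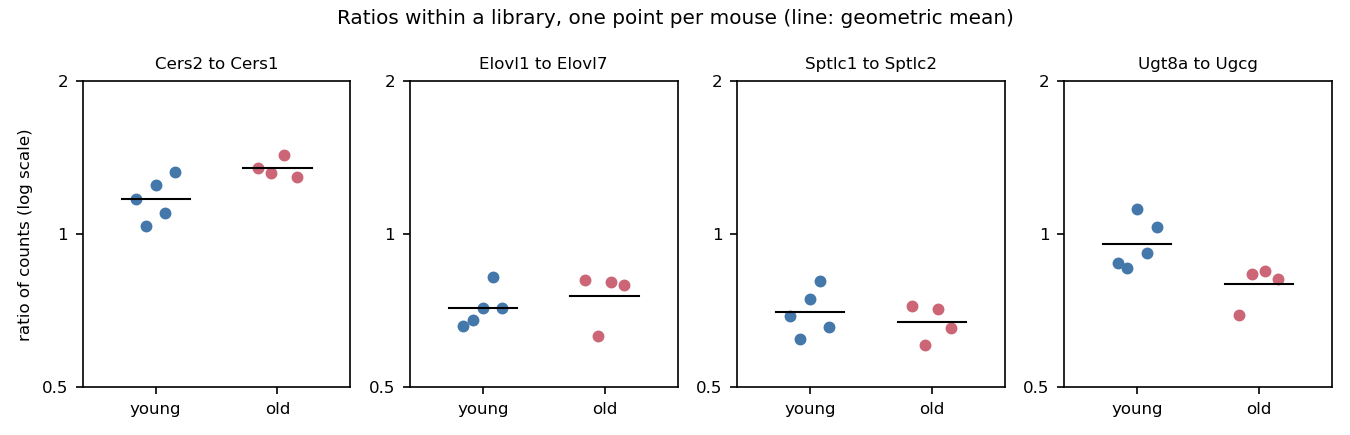
Ratio of counts of the named gene pairs within each library (vertical axis, log scale), with a point for each of the 5 young and 4 old mice and a line at the geometric mean. Only the Ugt8a to Ugcg ratio separates the ages without overlap.

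Within an age, the members varied together only in part. After the mean of each age was removed from the log2 CPM of the 9 mice, Aspa and Elovl7 had a Pearson r of 0.849, Ugt8a and Elovl7 0.813, Gal3st1 and Aspa 0.763 and Cers1 and Sptlc2 0.759. At the other end, Gal3st1 and Sptlc1 had -0.647 and Gal3st1 and Cers1 -0.558. Ugt8a and Gal3st1, which act in sequence, had an r of 0.122. The 9 points share library, depth and dissection between genes, and these values are descriptions.

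Among all genes tested, the 3 with the highest r to each member were as follows. For Ugt8a they were Klk6 (0.974), Ddx10 (0.967) and Pmp22 (0.966), for Gal3st1 Ttc26 (0.983), Prob1 (0.960) and AI849053 (0.943), and for Fa2h Pgrmc2 (0.989), Nkx6-1 (0.975) and Lpin1 (0.973). For Aspa they were Chd1 (0.965), Zbtb10 (0.952) and Adsl (0.951), and for Cers2 Rnf13 (0.975), Maea (0.963) and Foxj1 (0.950). The 5 members that did not pass the test had Gm22009, Chid1 and Btbd7 (Cers1), Adgre5, Map7d2 and Itga10 (Elovl1), Qtrt2, Il33 and Efhd1 (Elovl7), Pim2, Cttn and Akna (Sptlc1), and Grm8, Fam129b and Gm28941 (Sptlc2), with r from 0.933 to 0.985. Of all these genes, Adgre5 (log2 fold change 0.41), Il33 (0.58) and Fam129b (0.31) differed between the ages (edgeR adjusted p = 0.0048, 0.029 and 0.0069). High values are reached by chance when 18492 genes are searched over 9 mice.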

How the data were processed

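Trimming, alignment to GRCm38 with STAR and exon counting with featureCounts were done by the authors. They deposited raw counts per gene, a normalized signal (counts divided by a size factor per library) and TPM values. The submitters' processing notes name DESeq2. Each table held 1 column of per-sample values that matched no sample used here.

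Counts were tested with edgeR 4.0.16 in R 4.3.3 (filterByExpr with a minimum count of 10 and total of 15, TMM, robust quasi-likelihood test, Benjamini-Hochberg over 18492 genes, threshold 0.05). CPM used TMM-scaled library sizes. Libraries held 14229259 to 21150439 counts, and no pair was a duplicate. The mice were biological replicates by the study's description. The ratios used exact permutation tests. Alternatives were DESeq2 1.42.0, limma 3.58.1 on log2(TPM + 1), log2(TPM + 0.1) and log2 normalized counts, other size factors and filters, a replicate block, scaling to structural myelin genes and each mouse left out. The fit without robust moderation and the one without the 3 libraries low in Gm42418 were chosen after seeing the data. The test was checked on simulated counts.

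Exon lengths and positions came from GENCODE M21 and promoter windows from RefSeq (GRCm38.p6). The 10 genes and all lists were chosen with earlier results of these data known. The rule for naming covered the 10 genes, every pathway gene with an adjusted p under 0.05, the genes of the ratios, marker genes where 5 or fewer passed, and the 3 closest genes by correlation. Marker and pathway genes named beside these (Opalin, Pdgfra, Cldn5, Slco1c1, Folh1, Galc and Arsa) were chosen after their values were seen. Values of some marker genes are not reported here.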

Additional observations from a re-analysis of the deposited data

Results flagged for a closer look

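Among 28 groups of values searched, 3 held a mouse far from the others of its age by Dixon's 95% critical value, beside about 1.4 given by chance. Sptlc1 was highest in old replicate 4 at 28.8 CPM, with the gap to the nearest old mouse equal to 0.870 of the group's range. Sptlc2 was highest in young replicate 2 at 46.7 CPM (0.738 of the range). The Elovl1 to Elovl7 ratio was lowest in old replicate 3 at 0.630 (0.905 of the range). None of the 3 concerns a gene that passed the test between the ages.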

How the results depend on the processing

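The falls of Ugt8a, Gal3st1 and Fa2h and the rise of Aspa kept their direction in all 21 alternatives. Their calls held in 18 of the 21 for Gal3st1, Fa2h and Aspa and in 19 for Ugt8a. The number of the 10 that were lower was 0 with limma on log2(TPM + 1) (3 at an unadjusted p under 0.05 in either direction) and on log2(TPM + 0.1), 1 without the 3 libraries low in Gm42418 and 3 to 3 when each mouse was left out. The number that were higher was 0 with both TPM scales and with scaling to the structural myelin genes, 1 with DESeq2, with the normalized counts, with the replicate block and without the 3 libraries, and 1 to 2 when each mouse was left out. The median of the 10 was -0.19 and -0.20 on the TPM scales and -0.19 on the structural myelin scale, where the median of all genes was -0.14, -0.16 and -0.15. On log2(TPM + 1), adjusted p was 0.070 for Ugt8a, 0.11 for Gal3st1, 0.26 for Fa2h and 0.58 for Aspa, and that scale called 287 genes lower and 307 higher over all genes, beside 905 and 1126 with edgeR. With log2(TPM + 0.1) these were 296 and 304, on the structural myelin scale 1830 and 445, and without the 3 libraries 281 and 465. The cause was not tested.

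Values that changed sign were Cers2 (-0.014 on both TPM scales), Elovl1 (-0.10 on log2(TPM + 1), -0.11 on log2(TPM + 0.1) and -0.088 on the structural myelin scale), Elovl7 (0.092 without the 3 libraries, and -0.072 to 0.053 when each mouse was left out, positive without old replicate 1) and Sptlc2 (0.025 with the replicate block, and -0.061 to 0.030 when each mouse was left out, positive without young replicate 2 or old replicate 1). For mice with the same replicate number, the deviations from the age means correlated between -0.12 and 0.17. With 4 such pairs, these values cannot show whether the mice shared a batch. With the block Cers2 was no longer called (log2 fold change 0.14, adjusted p = 0.11). For the ratios, an exact sign-flip permutation test over 4 pairs cannot go below p = 0.125. Depth limits Gal3st1 most, with 156 to 274 counts per library.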
